A study of Homo sapiens with 11 samples.

Results

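The RNA levels of 10 genes of fibroblast growth factor (FGF) signalling were followed in lung adenocarcinoma (LADC) cells that carried TRIM58 or an empty vector. They are the ligands FGF1, FGF2, FGF5 and FGF19, the receptors FGFR1 to FGFR4, the FGF-binding protein FGFBP1 and the feedback inhibitor SPRY4. All probes of these genes were taken through the RefSeq accession of each probe, which gave 19 of the 42405 probes and 10 of the 20245 named genes on the array. The genes had been picked with their levels in all 4 groups known, so their levels and differences are a description. Where the fit over all probes called a member, this is counted once beside the share of all probes called, and nothing is read from it. A549 and HCC827 are established human LADC lines. In both lines, cells infected with a retrovirus from the empty pMXs-Neo vector (mock) were set against cells infected with the same vector carrying FLAG-tagged wild-type TRIM58 (TRIM58-WT), an E3 ubiquitin ligase, and all had been selected with G418. Per the study's methods clones were then isolated, and its legends name numbered clones for A549 and crude transfectants for HCC827. A549 was measured with 3 mock replicates on 4 arrays, since arrays 1-1 and 1-2 share control cell 1 and were averaged, and with 3 TRIM58-WT replicates. HCC827 was measured with 2 mock and 2 TRIM58-WT replicates. The question of the arrays was which pathways shift when TRIM58 is overexpressed.

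FGFs are secreted proteins that bind receptor tyrosine kinases together with heparan sulphate on the cell surface. The activated receptor recruits adaptors such as FRS2 and GRB2 and starts the RAS-ERK cascade, which in turn induces Sprouty proteins and phosphatases that restrain it. In the lung, FGF signals between epithelium and mesenchyme shape the branching airway, and the receptors are known as drivers of some lung cancers.

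Each level is a log2 signal relative to the 75th percentile of its array, so a level of 0 equals that percentile, and the scanner software marked which signals were well above background. The 75th percentile signal was 56.58 to 102.9 on the A549 arrays and 108.0 to 125.4 on the HCC827 arrays. It was 60.29 on the array of mock replicate 3, 62.48 and 56.58 on those of TRIM58-WT replicates 2 and 3, and 90.49 or more on the other A549 arrays. For TRIM58, probe A_33_P3249414 gave -5.64 to -4.63 where the label is TRIM58-WT, never well above background, and -0.71 on A549 mock replicate 3, the only array where it was. Directions below therefore rest on the labels. Whether the probe lies within the transferred coding sequence is not given in the sources used here. Of 10 lung epithelial markers, 6 were above background on every array labelled A549 mock, 4 on every array labelled A549 TRIM58-WT and 8 on every HCC827 array of either label, and the lineage factor NKX2-1 was not well above background on any A549 array. None of 5 endothelial markers was above background on any array, and of 6 fibroblast markers LUM alone was, on A549 mock arrays 1-1, 1-2 and 2. Of the leukocyte markers CD68 was above background on all 11 arrays, CD14 on all arrays but A549 TRIM58-WT replicates 2 and 3, PTPRC on some arrays of every group and CD3E on none. A culture's RNA cannot tell a change per cell from a change in the share of cells.

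The stretches upstream of FGF2 and FGFBP1 are shown because these genes had the highest and the lowest A549 difference among the member probes well above background throughout an A549 group. They come from the RefSeq promoter table of GRCh38.p14 and lie outside the annotated genes, FGF2 at chr4:122826581-122826681 on the plus strand and FGFBP1 at chr4:15938741-15938990 on the minus strand. Capitals mark CG dinucleotides, the sites at which promoter DNA can be methylated. Methylation was not measured on these arrays.

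FGF2: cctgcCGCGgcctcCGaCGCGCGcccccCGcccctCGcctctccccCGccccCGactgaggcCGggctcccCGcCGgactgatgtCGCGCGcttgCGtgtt
FGFBP1: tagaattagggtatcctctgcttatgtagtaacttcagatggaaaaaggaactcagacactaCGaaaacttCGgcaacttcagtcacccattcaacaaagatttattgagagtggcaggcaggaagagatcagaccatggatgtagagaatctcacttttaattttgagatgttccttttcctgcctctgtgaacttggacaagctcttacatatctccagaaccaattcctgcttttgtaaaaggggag

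In the 250 bases before the start listed in that table, FGF2 held 33 CG dinucleotides. The listed start of FGF2 lies inside the annotated gene, so this window reaches into the gene, and the 101 bases shown hold 17 of them. For windows of that length, 8.15% of the 35116 promoters in the table held as many CG as FGF2 or more. FGFBP1 held 2, the median over all promoters being 11. The GC box, searched as GGGCGG on both strands and itself containing a CG, occurred 3 times in the FGF2 window and not in that of FGFBP1, and 42.6% of all promoters held at least 1. These letters describe the sequence and not a bound site.

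FGF2, the basic FGF known from mesenchymal cells, was higher on the arrays labelled TRIM58-WT in both lines. Its probe A_33_P3419696 read -2.87 and -3.00 on mock arrays 1-1 and 1-2 of A549, -2.79 on mock replicate 2 and -1.46 on mock replicate 3, of which only the last was well above background. The TRIM58-WT replicates 1 to 3 read -0.64, -0.43 and -0.43, all well above it. Every A549 TRIM58-WT value lay above every mock value, and mock replicate 3 lay between the other mock arrays and TRIM58-WT. The means were -2.40 ± 0.81 and -0.50 ± 0.12 (SD, n = 3 each), a difference of 1.89 (SE 0.40) on the log2 scale. Since FGF2 was within background on 3 of the 4 mock arrays, this is a difference of signals and no fold is given. Without mock replicate 3 the difference was 2.36. Within slide 1 it was 2.19 and within slide 2 it was 1.80, and it was 0.66 with normexp background correction, which adds an offset of 50 to every signal.

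In HCC827, FGF2 read -3.71 and -3.44 on the mock arrays, neither well above background, and -1.36 and -1.61 on the TRIM58-WT arrays. The groups did not overlap. The measured means were -3.58 ± 0.19 and -1.49 ± 0.17 (SD, n = 2 each). As the mock level was within background, a bound stands in place of a fold, at least 3.36-fold higher. With normexp the difference was 0.61. That bound, like each "at least" fold below, sets the bright mean against the lowest signal well above background on each dim array. Where the measured dim signal was higher, that signal was used. The bound is no detection limit, since brighter signals could also fail to be well above background. The marker SFTPB did so at -2.61 on HCC827 mock replicate 1. A true fold below the bound is therefore not excluded. Of the groups in which FGF2 was well above background on every array, A549 TRIM58-WT lay above HCC827 TRIM58-WT with no overlap. The mock groups have no order, as 1 mock array alone was above background, A549 mock replicate 3, whose -1.46 fell within the HCC827 TRIM58-WT range of -1.61 to -1.36. A second FGF2 probe, A_33_P3379886, stayed within background throughout (-5.33 to -4.50) and gives no second reading.

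**Figure D1:**
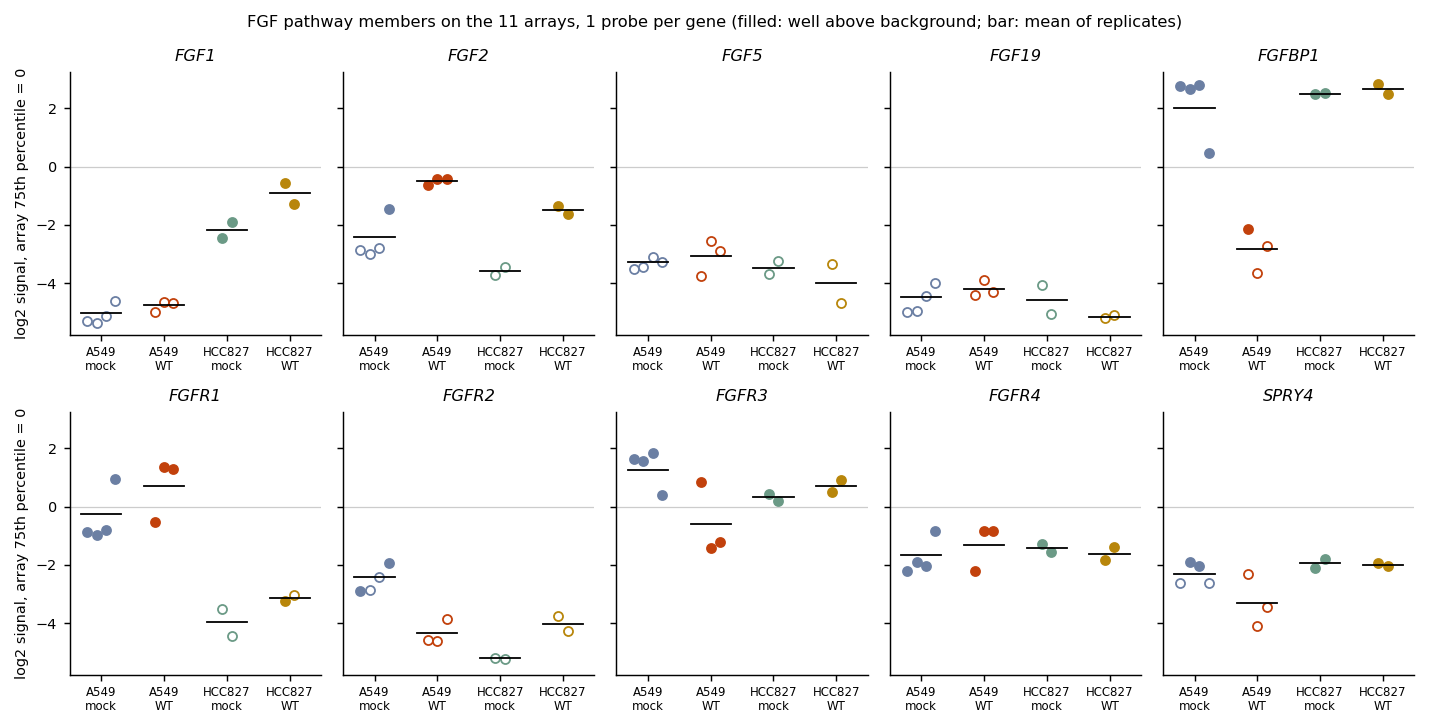
Log2 signal relative to the 75th percentile of the array (y axis) for 1 probe of each of the 10 genes, that well above background on most arrays, in the 4 groups (x axis). Points are arrays, filled where well above background and open otherwise, and bars are means over replicates. FGF2 sits higher in both TRIM58-WT groups, FGFBP1 sits lower in A549 TRIM58-WT alone, and FGF5 and FGF19 have open points only.

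FGF1, the acidic FGF that binds all 4 receptors, was seen in HCC827 alone. Its probe A_23_P213336 stayed within background in all of A549, at -5.35 to -4.62. In HCC827 it read -2.44 and -1.89 on the mock arrays and -0.55 and -1.27 on the TRIM58-WT arrays. The TRIM58-WT values were both above the mock values, with a difference of 1.25 (SE 0.33). This was 2.38-fold. With each replicate left out in turn it ranged from 0.89 to 1.61, and it was 0.48 with normexp. The other probes of FGF1 stayed within background on every array. So did all 3 probes of FGF5 and the 1 probe of FGF19, a ligand that signals through FGFR4 with the co-receptor KLB.

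FGFBP1, which releases FGFs from heparan sulphate in the matrix, showed the largest difference of the members. Probe A_23_P30126 read 2.78, 2.65 and 2.80 on A549 mock arrays 1-1, 1-2 and 2 and 0.48 on mock replicate 3, all well above background. On the arrays labelled TRIM58-WT it read -2.13, -3.63 and -2.72, and only the first of these was well above background. The lowest mock value was thus far above the highest TRIM58-WT value. The difference was -4.82 (SE 0.70), from 2.00 ± 1.32 to -2.83 ± 0.75 (SD, n = 3 each), and it was -4.92 within slide 1, -4.73 within slide 2, -5.58 without mock replicate 3 and -2.49 with normexp. As the level was within background on 2 of the 3 TRIM58-WT arrays, no fold is given. In HCC827 the same probe read 2.49 and 2.51 on the mock arrays and 2.84 and 2.48 on the TRIM58-WT arrays, so the groups overlapped and the difference was 0.16 (SE 0.17). The A549 and HCC827 mock arrays overlapped too.

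The epithelial adhesion molecule EPCAM was low and high on the same A549 arrays as FGFBP1. It read 2.73, 2.71, 2.78 and 0.59 on mock arrays 1-1, 1-2, 2 and 3 and was lower on every TRIM58-WT array, with -3.45 and -3.08 on replicates 2 and 3, which were within background. Of 6 lung epithelial markers tested in A549, 4 were called lower by limma and 0 higher (0 also at an unadjusted p under 0.05). Of all 11200 named genes tested, 489 were called lower and 467 higher. EPCAM and KRT19 were tested because they were well above background throughout the mock group alone. This favoured a lower level in TRIM58-WT, and nothing is read from their part in the count. KRT7 of the same list read 8.94 to 9.95 on the mock arrays and 9.03 to 10.08 on TRIM58-WT. The summed signal of the lung epithelial list, in units of the 75th percentile signal, was 1510 to 2310 on the mock arrays and 1100 to 1720 on the TRIM58-WT arrays. In HCC827, 0 of 8 tested were called (4 at an unadjusted p under 0.05, limma). The fibroblast marker LUM read 0.07, 0.07 and -0.07 on mock arrays 1-1, 1-2 and 2 of A549, -4.18 on mock replicate 3 and -4.80 to -4.55 on TRIM58-WT. The summed signal of the 6 fibroblast markers was 0.278 to 1.22 on the mock and 0.237 to 0.355 on the TRIM58-WT arrays of A549. CD14 read 0.68 to 0.93 on the A549 mock arrays and -2.59 to -1.84 on TRIM58-WT. The summed signal of the leukocyte list was 3.82 to 4.94 and 1.9 to 2.1 in these groups, and in HCC827 it was 4.56 on both mock arrays and 6.36 to 7.28 on TRIM58-WT. The part of these markers in the FGFBP1 and FGF2 differences was not tested.

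FGFR1, the receptor for FGF2 and many other ligands, was well above background on every A549 array. Probe A_23_P372923 read -0.86, -0.96, -0.79 and 0.95 on A549 mock arrays 1-1, 1-2, 2 and 3 and -0.53, 1.37 and 1.30 on TRIM58-WT replicates 1 to 3. Mock replicate 3 and TRIM58-WT replicates 2 and 3 were high, and the groups overlapped. The difference was 0.96 (SE 0.70). The second probe, A_23_P301304, had the same arrays high, with a range of -1.35 to 0.77 over the mock arrays and -0.93 to 0.88 over TRIM58-WT, and a difference of 0.53 (SE 0.64). The high arrays are those with a 75th percentile signal of 62.48 or less, and the part of that signal in the FGFR1 level was not tested.

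Between the mock arrays of both lines, FGFR1 was at least 7.4-fold higher in A549 by probe A_23_P301304 and at least 7.9-fold higher by probe A_23_P372923, since it was not well above background on either HCC827 mock array (-5.16 to -3.50). With normexp the differences were 1.23 and 1.18 on the log2 scale. In HCC827 TRIM58-WT it was above background by probe A_23_P372923 on 1 array, at -3.24. No FGFR1 difference was tested in that line.

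FGFR2, whose epithelial form binds FGF7 and FGF10, was low throughout. Probe A_23_P202334 read -2.91 and -1.94 on A549 mock arrays 1-1 and 3, both well above background, and -2.85 and -2.40 on mock arrays 1-2 and 2, which were not. On the A549 TRIM58-WT arrays it read -4.57, -4.62 and -3.86, none well above background. The groups did not overlap, and the measured means differed by -1.94. As only 2 of the 4 mock arrays were well above background, no fold is given. In HCC827 it stayed within background (-5.21 to -3.75), and the other FGFR2 probe was above background nowhere.

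FGFR3, a receptor common in epithelial cells, read 1.63, 1.57, 1.83 and 0.39 on A549 mock arrays 1-1, 1-2, 2 and 3 by probe A_23_P500501. TRIM58-WT replicate 1 read 0.83, and replicates 2 and 3 read -1.43 and -1.21. The groups overlapped through mock replicate 3 and TRIM58-WT replicate 1, and the difference was -1.88 (SE 0.68). It was -0.90 within slide 1 and -2.30 within slide 2. HCC827 read 0.43 and 0.21 on mock and 0.51 and 0.90 on TRIM58-WT, a difference of 0.39 (SE 0.20) with no overlap. The second probe, A_23_P212830, was above background on 1 array only, A549 TRIM58-WT replicate 1, at -2.23.

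FGFR4, the receptor of FGF19, was well above background on all 11 arrays and differed little between the groups. Its probe A_23_P92754 read -2.21, -1.89, -2.04 and -0.84 on A549 mock arrays 1-1, 1-2, 2 and 3 and -2.21, -0.84 and -0.84 on TRIM58-WT replicates 1 to 3. As for FGFR1, mock replicate 3 went with TRIM58-WT replicates 2 and 3. The A549 difference was 0.35 (SE 0.50), and -0.02 when arrays were centred on their medians. HCC827 read -1.28 and -1.55 on mock and -1.84 and -1.38 on TRIM58-WT, a difference of -0.20 (SE 0.22) with overlapping groups.

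**Figure D2:**
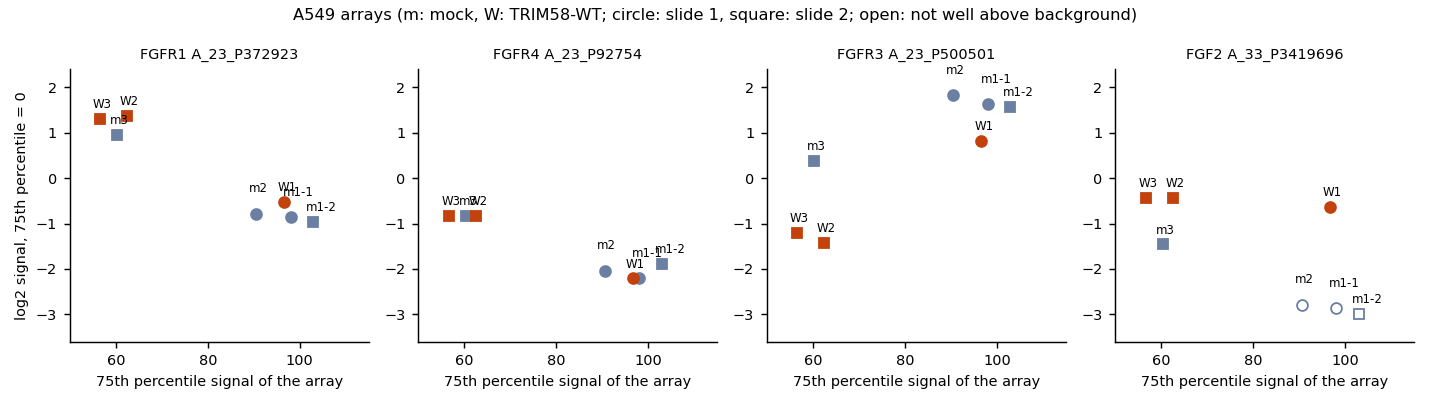
Log2 signal of FGFR1, FGFR4, FGFR3 and FGF2 (y axis) against the 75th percentile signal of each A549 array (x axis, scanner units), with mock in blue and TRIM58-WT in orange. Mock replicate 3 (m3) lies beside TRIM58-WT replicates 2 and 3 for FGFR1 and FGFR4 and between them and the other mock arrays for FGFR3, while for FGF2 all 3 TRIM58-WT arrays lie above all mock arrays.

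SPRY4, a Sprouty protein that ERK signalling induces and that restrains it, had overlapping groups in both lines and was not tested in A549. By probe A_24_P269062 A549 read -2.62, -1.89, -2.03 and -2.62 on the mock arrays and -2.31, -4.10 and -3.46 on TRIM58-WT, and only mock arrays 1-2 and 2 were well above background. The groups overlapped, and the measured means differed by -0.99. In HCC827 the same probe was well above background on all 4 arrays, at -2.10 and -1.79 on mock and -1.95 and -2.03 on TRIM58-WT, with a difference of -0.05 (SE 0.16). The other SPRY4 probe, A_33_P3338423, was above background on some arrays of every group, between -3.92 and -2.02, with overlapping groups in both lines. Its measured A549 means differed the other way, by 0.62.

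In all, 11 of the 19 probes gave a signal well above background at least once. In A549, 6 probes of 5 genes passed the filter, which asks for such a signal throughout a group, and 2 of them were called (adjusted p under 0.05 and at least 2-fold), FGF2 higher and FGFBP1 lower, where 6.92% of the 16923 probes of the fit were called. The same 2 had groups that did not overlap, against 31.0% of all. In HCC827, 1 of 6 probes was called, FGF2, where 0.884% of 19563 were, and 3 of 6 (FGF1, FGF2 and FGFR3) did not overlap, against 56.7% of all. Of the 8 probes in the contrast of both changes, 1 was called, FGFBP1, where 3.86% of 20641 were. FGF2 passed the filter through the TRIM58-WT group alone in both lines, and FGFBP1 in A549 through the mock group alone, so they had to differ there. Since the members were chosen on these values, nothing is read from these counts.

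**Figure D3:**
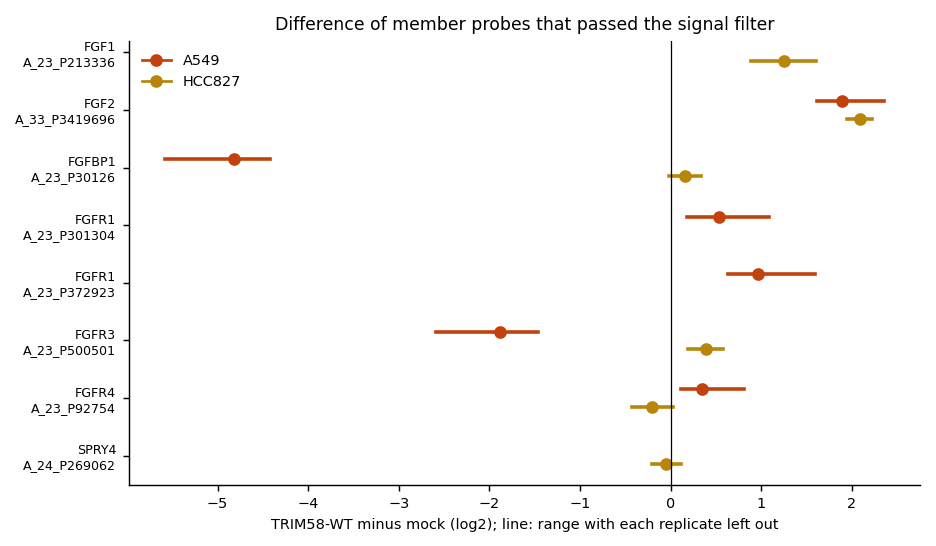
Difference between TRIM58-WT and mock (x axis, log2) for the member probes that passed the signal filter in A549 or HCC827 (y axis). Dots are the differences over all replicates and lines the range with each replicate left out in turn. FGF2 lies between 1.62 and 2.36 in A549 and between 1.95 and 2.22 in HCC827, and FGFBP1 between -5.58 and -4.42 in A549.

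Between the mock arrays of A549 and HCC827, 7 member probes passed the filter and 3 were called, both FGFR1 probes higher in A549 and FGF1 lower, where 30.3% of 19505 probes were called. FGF1 was at least 1.66-fold lower in A549 by that bound. Its measured difference of -2.86 on the log2 scale shrank to as little as -0.28 under the alternatives that kept all replicates. The same 3 probes did not overlap, against 69.7% of all. FGF2 was well above background on mock replicate 3 of A549 and on no other mock array, and was not tested. FGFR3 was at 1.27 ± 0.78 (SD, n = 3) in A549 and 0.32 ± 0.16 (SD, n = 2) in HCC827, and FGFR4 at -1.65 ± 0.69 and -1.42 ± 0.19, each with overlapping groups. The FGFBP1 difference of -0.51 (SE 0.75) was 0.25 without mock replicate 3 and 0.29 within slide 1. FGFR1 and FGF1 each passed the filter only through the line in which they were high, so they had to differ, and nothing is read from these counts either.

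The other genes of the pathway were taken from 6 lists of 85 genes by function, and tested with limma's test over all probes with Benjamini-Hochberg adjustment. In A549, 50 of them were tested, 0 were called higher (8 at an unadjusted p under 0.05) and 4 lower, or 8% beside 8.54% of all named genes. The median difference was 0.10, beside 0.03 over all named genes. The neural adhesion molecule NCAM1, which can bind FGF receptors, was at -0.72 ± 1.25 in mock and not well above background in TRIM58-WT (SD, n = 3), at least 3.77-fold lower (adjusted p = 0.014, limma). NCAM1 passed the filter through the mock group alone, which favoured a difference, so nothing is read from its p-value. HS3ST1, which adds a 3-O-sulphate to heparan sulphate, fell by 1.38 (SE 0.19, adjusted p = 0.0108, limma). The ERK phosphatase DUSP4 fell by 1.08 (SE 0.18, adjusted p = 0.02, limma) and the cyclin CCND1, an ERK target, fell by 1.13 (SE 0.24, adjusted p = 0.0395, limma). All 4 calls were lost when mock replicate 1 or 2 or TRIM58-WT replicate 2 or 3 was left out, and without mock replicate 3 the lists gave 8 called genes, CCND1 not among them.

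By list in A549, 1 of 8 co-receptors and binding proteins, 1 of 10 heparan sulphate enzymes, 1 of 6 feedback inhibitors and 1 of 9 ERK-induced genes were called, all lower. None of 17 receptor adaptors and members of the RAS-ERK cascade was called (3 at an unadjusted p under 0.05), and their median difference was 0.14. No probe of the other FGF ligands passed the filter in A549.

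In HCC827, 57 other genes were tested, 0 were called higher (12 at an unadjusted p under 0.05) and 2 lower, or 3.51% beside 1.17% of all named genes, with a median difference of 0.07 beside 0.01. FGF9, a ligand made by lung epithelium and mesothelium, fell by 2.00 (SE 0.20, adjusted p = 0.0465, limma) by probe A_33_P3348714, from 0.52 to 0.72 on the mock arrays to -1.59 to -1.16 on TRIM58-WT. Its probe A_33_P3348719 was at least 2.86-fold lower (adjusted p = 0.0388, limma). That probe passed the filter through the mock group alone, so nothing is read from its p-value. The enzyme HPSE, which cuts heparan sulphate, fell by 1.57 (SE 0.13, adjusted p = 0.036, limma). The calls of both genes were lost when either mock replicate or TRIM58-WT replicate 1 was left out. None of 6 co-receptors, 17 adaptors and cascade members, 9 feedback inhibitors or 11 ERK-induced genes was called (4, 3, 3 and 6 at an unadjusted p under 0.05), and no gene of the lists was called in both lines.

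**Figure D4:**
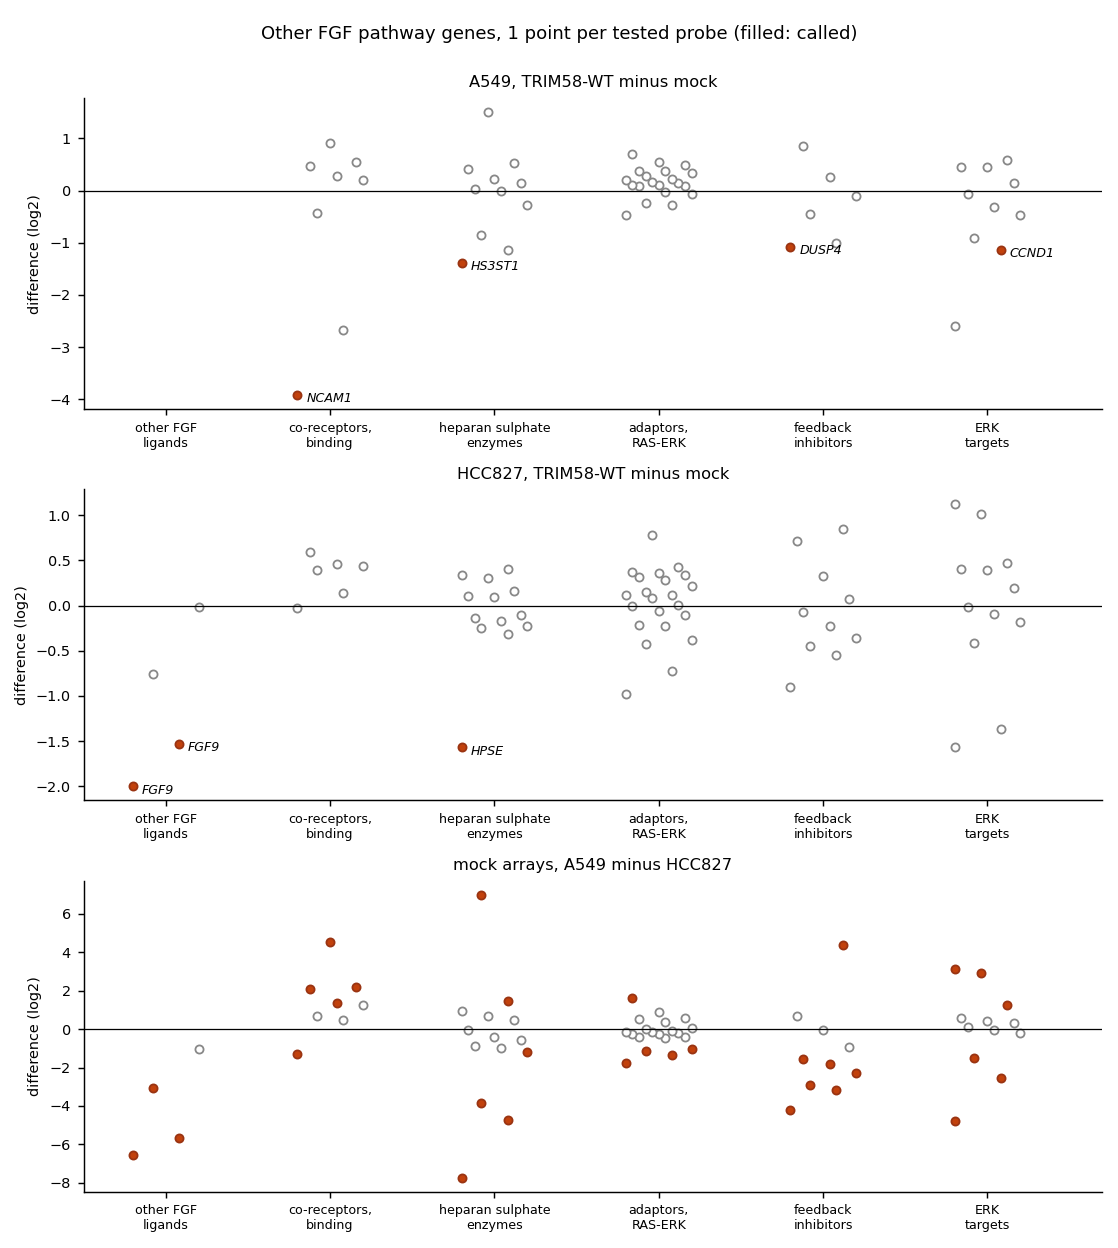
Difference (y axis, log2) of each tested probe of the other pathway genes by list (x axis), for TRIM58-WT minus mock in A549 and in HCC827 and for A549 minus HCC827 among mock arrays. Filled points were called at an adjusted p under 0.05 and at least 2-fold. Few points are filled in the upper panels, all below 0, and many in the lowest, on both sides of 0.

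The mock arrays of both lines differed in many pathway genes. All HCC827 arrays were on slide 1 and the A549 mock arrays on both slides, so line and slide were not fully separated. Of 59 tested, 10 were called higher and 17 lower in A549, or 45.8% beside 34.8% of all named genes. SULF2, which removes 6-O-sulphates from heparan sulphate, was at 1.94 ± 0.66 (SD, n = 3) in A549 and not well above background in HCC827 (adjusted p = 0.000269, limma). HS6ST2, which adds them, was above background on no A549 mock array. It was at least 54.6-fold lower there by probe A_24_P105191 (adjusted p = 0.000449, limma) and at least 5.21-fold lower by probe A_33_P3290714. FGF9 was at least 11.4-fold lower in A549 by probe A_33_P3348714 (adjusted p = 0.000109, limma) and at least 2.24-fold lower by probe A_33_P3348719. FGF13, an FGF homologue that stays inside the cell, was at least 23.8-fold lower (adjusted p = 6.94e-05, limma). Of 9 feedback inhibitors, DUSP4 was higher in A549, by 4.39 (SE 0.16, adjusted p = 7.57e-05, limma), and 5 were lower, such as SPRY2 by -2.28 (SE 0.29, adjusted p = 0.00286, limma). Among 11 ERK-induced genes, IER3 and ETV4 were higher and EGR1, FOSL1 and MYC lower in A549. The immediate early factor EGR1 differed by -4.79 (SE 0.60, adjusted p = 0.00283, limma). Among the genes named here, SULF2 passed the filter through A549 alone. HS6ST2, FGF9, FGF13, SPRY2 and EGR1 passed it through HCC827 alone. The filter thus favoured a difference for all of them, and nothing is read from their p-values.

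The genes whose levels were most like those of FGF2 were sought by the root mean square (RMS) difference of centred log2 levels from FGF2 probe A_33_P3419696, over the 10 replicates and 12832 genes. The nearest was TTC7B at an RMS of 0.40, followed by NNMT, which methylates nicotinamide, at 0.43, the secreted protein FSTL1 at 0.44, the collagen crosslinking enzyme LOXL2 at 0.45 and the sodium leak channel NALCN at 0.46, where the median gene was at 1.27. NNMT averaged 6.42 in A549 mock, 7.37 in A549 TRIM58-WT, 4.56 in HCC827 mock and 6.36 in HCC827 TRIM58-WT. FSTL1 averaged 3.23, 4.92, 1.89 and 3.43 in the same order. These genes were chosen for their nearness to FGF2, so a shared direction follows from the choice, and FGF2 itself was within background on all but 1 of the mock arrays. The replicates of a line share their cells of origin, and these distances are a description.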

How the data were processed

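RNA was measured on 11 Agilent SuperPrint G3 8x60K arrays in 1 colour. The authors scanned them and deposited the intensity of each spot after background subtraction, per the file headers by Feature Extraction 11.5.1.1, while the submitters' processing notes name version 10.7. The authors also deposited a log2 table. Its values, centred per probe, lay within 0.01 of those used here in 95.47% of cases. The paper names Gene Spring GX and Benjamini-Hochberg adjustment, and a t-test among the general tests for comparing groups, without saying which test was used on the arrays.

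From the intensities, outlier spots were left out, spots of a probe were averaged, and log2 of the processed signal was taken minus the 75th percentile of each array. A dim value has its bound set by the lowest signal marked well above background on its array, which differs between arrays and is no detection limit. The number of arrays limits the precision. Nothing in the labels says that replicates of either line came from separate cultures, so p-values measure only the spread between these samples. Probes whose signal was well above background throughout 1 or more of the compared groups were fitted with limma 3.58.1 (R 4.3.3) on the groups compared, or on all 4 groups for the contrast of both changes. Calls needed an adjusted p under 0.05 and a 2-fold difference, or the adjusted p alone for that contrast. The fits were tested on simulated data. Of the probes, 28302 carried a RefSeq accession, and 27237 were named through the RefSeq table of GRCh38.p14. Arrays of slide 1 and slide 2 were also compared within each slide. Slide 1 held all HCC827 arrays, 2 A549 mock arrays and 1 A549 TRIM58-WT array, and slide 2 held 2 A549 mock and 2 A549 TRIM58-WT arrays.

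The members, the lists and the alternatives were chosen with earlier results of these data known. The text names all members, TRIM58, up to 5 called genes of each list and comparison by size of difference, genes called in both lines and the 5 genes most like FGF2. EPCAM, KRT7, KRT19, SFTPB, CD3E, CD14, CD68, PTPRC, LUM and NKX2-1 were chosen from the marker lists after their values were seen. Marker lists of lung epithelium and leukocytes gave 4 of 6 and 1 of 2 tested genes called lower in A549, and 0 of 8 and 0 of 3 called in HCC827. No probe of the fibroblast or endothelial list passed the filter in either line, so those lists were not tested. Each replicate was left out in turn, and the alternatives included normexp with an offset of 50, quantile normalization, centring on the median, 2 other filters, keeping outlier spots, the authors' log2 table, all groups in 1 fit, the replicate number as a block, the methods' t-test and 3 other uses of A549 mock arrays 1-1 and 1-2. Slide as a block with the mock arrays kept separate was added after seeing the data. Python 3.11.15 with matplotlib 3.10.9 drew the figures.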

Additional observations from a re-analysis of the deposited data

Results flagged for a closer look

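By the contrast of both changes in limma's fit over all probes (A549 change minus HCC827 change, log2), 5 of 60 other pathway genes tested were called. This was 8.33%, beside 5.23% of all named genes. The phosphatase DUSP4 differed by -1.93 (SE 0.25, adjusted p = 0.00648), with an A549 difference of -1.08 and an HCC827 difference of 0.85, and was called under all 12 alternatives. FGF9 differed by 2.25 (SE 0.33, adjusted p = 0.00981) by probe A_33_P3348714 and by 1.60 (SE 0.33, adjusted p = 0.0362) by probe A_33_P3348719. It was not well above background in A549 and was lower in HCC827 TRIM58-WT, where the second probe was within background. Its A549 change cannot be read, so neither value is a measured size of a difference between lines. The sulphotransferase HS3ST1 differed by -1.49 (SE 0.26, adjusted p = 0.0204), the heparan sulphate polymerase EXT1 by -1.27 (SE 0.25, adjusted p = 0.0314) and NCAM1 by -3.85 (SE 0.82, adjusted p = 0.0419). Outside A549 mock NCAM1 stayed within background, so its HCC827 change cannot be read and -3.85 is no measured size. NCAM1 passed the filter through A549 mock alone. FGF9 passed it through HCC827 alone, and by probe A_33_P3348719 through HCC827 mock alone. Nothing is read from the p-values of these 2 genes. Of the 12 alternatives, 10 kept the call of FGF9 probe A_33_P3348714, 2 that of its other probe, 3 those of HS3ST1 and EXT1 each, and 2 that of NCAM1.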

How the results depend on the processing

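Among the member probes that passed the signal filter, the differences past 1 in size kept their direction under each alternative run, and the other member probes were not refitted. Smaller ones turned for FGFR4 in A549 with a median shift (-0.02), FGFBP1 (-0.02) and FGFR4 (0.03) in HCC827 without TRIM58-WT replicate 1, SPRY4 in HCC827 with normexp (0.02) and without mock replicate 2 (0.11), and, between mock arrays, FGFBP1 (0.29 with slide as a block, 0.25 without A549 mock replicate 3), FGFR4 (0.01 with normexp) and SPRY4 (0.06 with normexp). With normexp, which adds an offset to every signal, FGF2 differed by 0.66 in A549 and 0.61 in HCC827 and FGFBP1 by -2.49 in A549. The 1171 calls in A549 became 506 with normexp, 609 with no filter, 673 with a filter on every array, 24 with the methods' t-test (1312 at an unadjusted p under 0.05 and 2-fold) and 1801 with slide as a block and arrays separate, and ranged from 301 to 1956 with a replicate left out (302 without mock replicate 1, 360 without mock replicate 2, 1956 without mock replicate 3, 369 without TRIM58-WT replicate 2, 301 without TRIM58-WT replicate 3). The 4 pathway genes called there became 2 with normexp and with no filter, 7 with all groups in 1 fit, 0 with the methods' t-test, 8 with mock arrays 1-1 and 1-2 as 2 replicates and 9 with slide as a block, and 0 to 8 with a replicate left out. A median shift moved the median A549 difference of all probes from 0.059 to -0.31 and the share of higher calls from 50.5% to 25.6%. In HCC827 the 173 calls became 633 with a median shift, 105 with normexp, 0 with no filter (limma, 4381 at an unadjusted p under 0.05), 373 with a filter on every array and 0 with the methods' t-test (343 unadjusted and 2-fold), and 0 to 831 with a replicate left out (0 without mock replicate 1, 1 without mock replicate 2, 831 without TRIM58-WT replicate 2). The 2 pathway genes became 6, 3, 0, 5 and 0 under these settings and 0 to 4 with a replicate left out. Between mock arrays, 5906 calls became 3049 with normexp and 3435 with a filter on every array, and 3836 to 6401 with a replicate left out, and the 27 pathway genes became 17 and 16. The 796 calls of the contrast of both changes became 527 with a median shift and 452 with no filter, and 208 to 2087 with a replicate left out, and its 5 pathway genes became 2 and 2, and 1 to 10. The causes were not tested.

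The labels give both groups of a line the same replicate numbers, and nothing in them says what the numbers share. Deviations of same-numbered samples correlated at 0.503, -0.422 and 0.503 in A549, where mock replicate 3 correlated best with TRIM58-WT replicate 2 (0.57), and at 0.077 in HCC827. With the replicate number as a block, 1119 probes and 5 pathway genes were called in A549 and 0 probes (limma, 3850 at an unadjusted p under 0.05) and 0 pathway genes in HCC827. A lone sample left in a group was assumed to vary like the other groups. Probes not well above background limit FGF1, FGF5, FGF19, FGFR2 and SPRY4 in A549 to bounds or to no comparison. FGF2 was well above background on 1 of 4 A549 mock arrays and FGFBP1 on 1 of 3 A549 TRIM58-WT arrays. Their A549 differences are therefore differences of signals without a fold.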
